A study of Canis lupus familiaris with 28 samples.

Results

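Oxidative phosphorylation subunits are the proteins that build the 4 complexes of the mitochondrial respiratory chain and the ATP synthase. Only subunits encoded in the nucleus are described here. The genes described here were chosen by name, with earlier results of these data known. The names were the array symbols of the NDUFA, NDUFB, NDUFC, NDUFS and NDUFV families (complex I) and SDHA to SDHD (complex II). Further names were the UQCR family and CYC1 (complex III), the COX5 to COX8 families (complex IV) and the ATP5 family (complex V, the ATP synthase). This gave 59 of the 16295 genes that had a Transcript cluster of their own, a Transcript cluster being the set of probes that reads 1 transcribed locus. Of the 59 genes, 32 belong to complex I, 3 to complex II, 8 to complex III, 6 to complex IV and 10 to complex V. A further Transcript cluster, annotated to both ATP5F1C and TAF3, was not read. SDHD, COX6A1, COX6B1, COX7A2 and COX7B were not matched, and the subunits encoded by mitochondrial DNA were not analysed here.

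The data came from formalin-fixed, paraffin-embedded (FFPE) biopsies of primary canine oral malignant melanoma (OMM), a tumour of melanocytes of the mouth. RNA of 28 tumours, each from its own dog and each on its own array, was measured as log2 expression values. The 18 metastasising (M) OMMs came from dogs whose death from metastasis was established, and the 10 non-metastasising (NM) OMMs from dogs that were alive long after surgery. The dogs belonged to 10 breed classes, with 8 Golden Retrievers (4 M and 4 NM) against 20 dogs of other breeds, and 7 cross breed dogs (6 M and 1 NM) against 21 purebred dogs. Every sample was whole tumour tissue, no normal oral mucosa was among the 28 arrays, and sex, age and stage were not used. Melanocyte markers were measured in both groups, with PMEL, a protein of the melanosome matrix, at a mean log2 value of 4.07 and SOX10, a transcription factor of melanocytes, at 3.14 over all tumours, while 4 of the 10 listed melanocyte markers had a mean under 2. The cross breed arrays lay at the low end in their signal, since 4.30% to 4.91% of their Transcript clusters had a log2 value above 4, against 4.80% to 6.36% in purebred arrays, and these ranges overlapped.

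Oxidative phosphorylation takes electrons from NADH at complex I and from succinate at complex II, passes them through ubiquinone to complex III and through cytochrome c to complex IV, where oxygen is reduced to water. Complexes I, III and IV pump protons out of the mitochondrial matrix, and complex V lets the protons flow back to make ATP. Melanoma cells can use both this route and glycolysis, and the balance between them is known to vary among tumours.

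The 59 genes were measured over a wide range of signal. Their mean log2 values ran between 1.34 (ATP5ME, a membrane subunit of the ATP synthase) and 6.59 (NDUFA12, an accessory subunit of complex I). Most Transcript clusters of the array were dim, with 74.2% of them at a mean under 2 and a median of 1.62. Of the subunit genes, 16 had a mean under 2 and 11 had a mean above 4, against 4.59% of all Transcript clusters above 4. The 16 dim genes lay in the range of most of the array, where small differences in RNA are compressed, and no detection call was used.

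Variation among tumours was larger for the subunit genes than for the array as a whole, with a median SD of 0.589 against 0.280 for all Transcript clusters. The subunit genes were also brighter, with a median of their means of 2.48 against 1.62. The SDs were not compared at equal brightness. In each complex 1 gene varied most. NDUFB1, an accessory subunit in the membrane arm of complex I, had an SD of 2.28, and its lowest, median and highest log2 values over the 28 tumours were 1.49, 6.57 and 8.87. UQCRH, the hinge protein of complex III, had an SD of 1.81 and values of 1.81, 4.12 and 7.20. COX5B, a nuclear-encoded subunit of complex IV, had an SD of 1.52 and values of 2.51, 4.52 and 8.92. These 3 genes spanned more than 5 log2 units each, and the lowest value of each was in a cross breed tumour. ATP5MC1, a gene for the c subunit of the ATP synthase ring, had an SD of 1.34 with values of 2.20, 3.52 and 6.61. SDHB, the iron-sulphur subunit of succinate dehydrogenase, was the most variable gene of complex II at an SD of 0.654, and its highest value of 4.34 lay far above its median of 1.66. The highest values of ATP5MC1 and SDHB were both in the Bullmastiff tumour, M replicate 16.

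**Figure D1:**
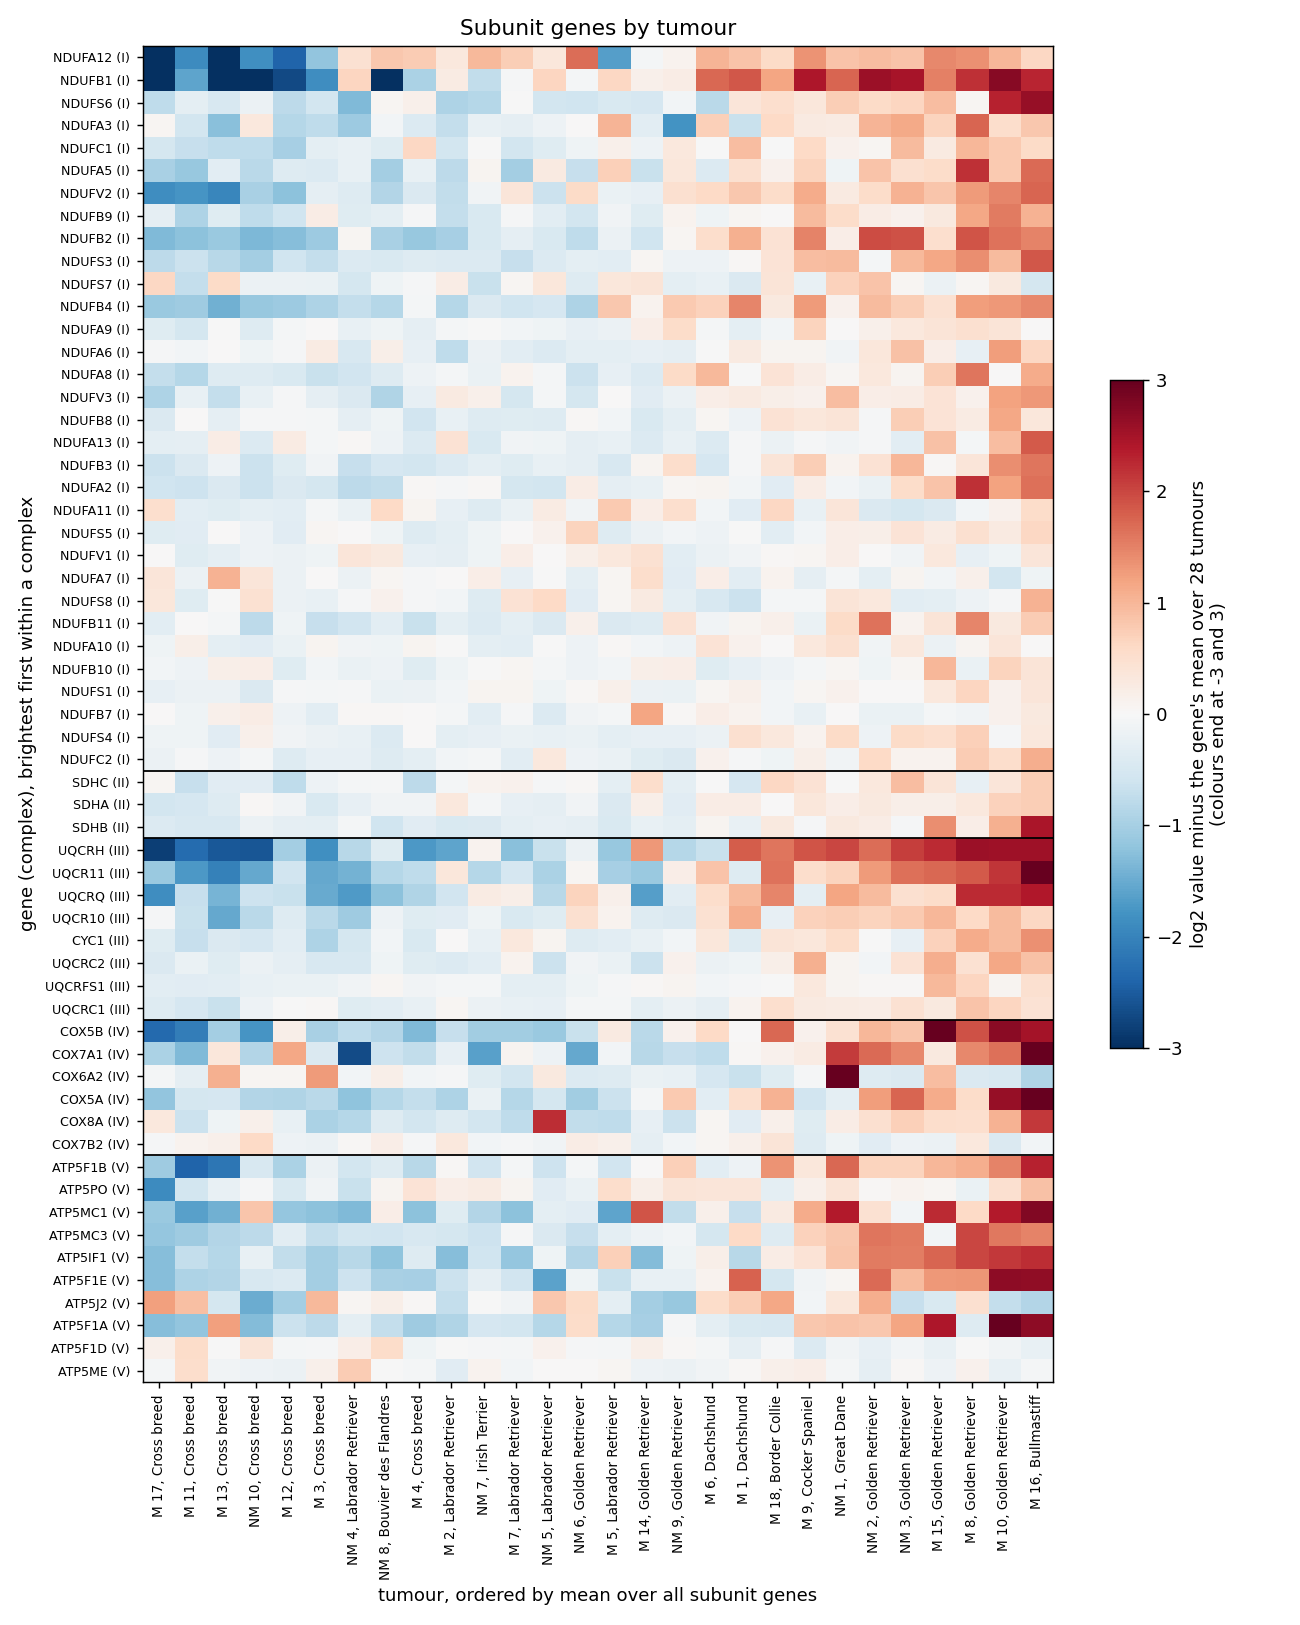
Log2 value of each of 59 subunit genes (rows, by complex and then by brightness) minus that gene's mean over 28 tumours (columns, ordered by their mean over all 59 genes, with status, replicate number and breed). The 6 lowest columns are cross breed tumours, and M replicate 16 (Bullmastiff) is the highest at a mean of 1.18.

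The genes of different complexes were mostly high and low in the same tumours. The mean of the centred log2 values over all 59 genes ran between -0.67 in M replicate 17 (cross breed) and 1.18 in M replicate 16. Over 28 tumours the means of complexes I and III had a Pearson correlation of 0.96, those of complexes I and V 0.95, and those of complexes II and IV 0.82, which was the lowest of the 10 pairs. The Spearman correlations of these 3 pairs over 28 tumours were 0.94, 0.94 and 0.56. Within the 21 purebred tumours the same 3 pairs had Pearson correlations of 0.95, 0.95 and 0.82. These correlations are descriptions, since all genes of a tumour share its array, its RNA and its signal strength.

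Single genes followed the rest to very different degrees. The Pearson correlation of a gene with the mean of the other 58 had a median of 0.75, with 23 genes above 0.8 and 6 below 0. NDUFS3, a core subunit of complex I, followed the others most closely at 0.94. Complex III was the most uniform, with all 8 genes between 0.75 (UQCRFS1, the Rieske iron-sulphur protein) and 0.93 (UQCR11, a small subunit). The 6 measured genes of complex IV, which include the tissue isoforms COX6A2, COX7A1 and COX7B2, had the lowest median of any complex, at 0.66. COX7B2, an isoform known in humans mainly from testis, was at -0.34. In complex I, NDUFA7, an accessory subunit, was lowest at -0.39. In complex II, SDHC, a membrane anchor of succinate dehydrogenase, was lowest at 0.59. In complex V, ATP5F1D, the delta subunit of the central stalk, was lowest at -0.60, and its log2 values of 1.28 to 2.24 were among the dim ones. Of the 6 genes below 0, 4 had a mean under 2, and the brighter ones were COX6A2 and ATP5J2. Of the 13 genes below 0.5, 9 had a mean under 2.

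The study was designed to compare M and NM OMMs, and the subunit genes showed no called difference between them. In limma with Benjamini-Hochberg adjustment over all 32391 Transcript clusters, 0 of the 59 genes passed an adjusted p of 0.05, against 0% of all Transcript clusters. None of the 59 had an unadjusted p under 0.05, against 2.55% of all Transcript clusters. The fitted M minus NM difference was positive for 42 genes and negative for 17, with a median of 0.06 on the log2 scale, beside 0.00 for all Transcript clusters. The complex medians were 0.07 for complex I, 0.07 for complex II, 0.13 for complex III, 0.08 for complex IV and -0.02 for complex V. In whole tumour tissue, fewer cells of a type and less RNA per cell cannot be told apart.

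The largest fitted differences belonged to variable genes and had wide intervals. COX5B had a lowest, median and highest log2 value of 2.51, 4.91 and 8.92 in M OMMs, against 3.06, 4.13 and 5.83 in NM OMMs, and a difference of 0.60 (95% interval -0.58 to 1.78). NDUFA12 had values of 2.56, 7.18 and 8.03 in M OMMs, against 4.75, 7.42 and 8.26 in NM OMMs, and a difference of -0.80 (95% interval -2.0 to 0.40). The groups overlapped for both genes, with the highest COX5B values and the lowest NDUFA12 values in M OMMs. NDUFA13, an accessory subunit of complex I also known as a regulator of cell death, had the smallest unadjusted p of the 59 (0.0990, adjusted p = 1, limma), at 1.97, 2.32 and 4.23 in M OMMs and 1.92, 2.21 and 2.42 in NM OMMs. Its higher end in M OMMs came from single tumours, while the medians differed little.

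The other genes with the smallest p of their complex and direction also had intervals that included 0. In complex I, the difference was 0.11 for NDUFS1, a core subunit with iron-sulphur clusters, and -0.17 for NDUFS5, an accessory subunit. In complex II it was 0.24 for SDHB, 0.07 for SDHA, the flavoprotein that oxidises succinate, and -0.09 for SDHC. In complex III it was 0.22 for CYC1 (cytochrome c1), 0.20 for UQCRC2, a core protein, and -0.06 for UQCRH. The medians of the 3 succinate dehydrogenase genes were close between the groups. They were 2.52 (SDHA), 1.66 (SDHB) and 2.51 (SDHC) in M tumours, against 2.35 (SDHA), 1.69 (SDHB) and 2.53 (SDHC) in NM tumours. The highest SDHB value was 4.34 in M tumours and 2.20 in NM tumours. In complex IV the difference was 0.47 for COX7A1, an isoform of heart and skeletal muscle, -0.26 for COX6A2, another muscle isoform, and -0.10 for COX8A. In complex V it was 0.25 for ATP5F1E, the epsilon subunit of the central stalk, 0.04 for ATP5J2 (the f subunit), -0.12 for ATP5F1D and -0.04 for ATP5ME. The fitted differences of UQCRH, ATP5J2, COX6A2, COX8A, SDHC and ATP5ME changed sign under at least 1 other setting or with 1 tumour left out. Without the cross breed tumours, the medians of complexes I to V were 0.20, 0.26, 0.44, 0.30 and 0.24, and again 0 genes were called.

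**Figure D2:**
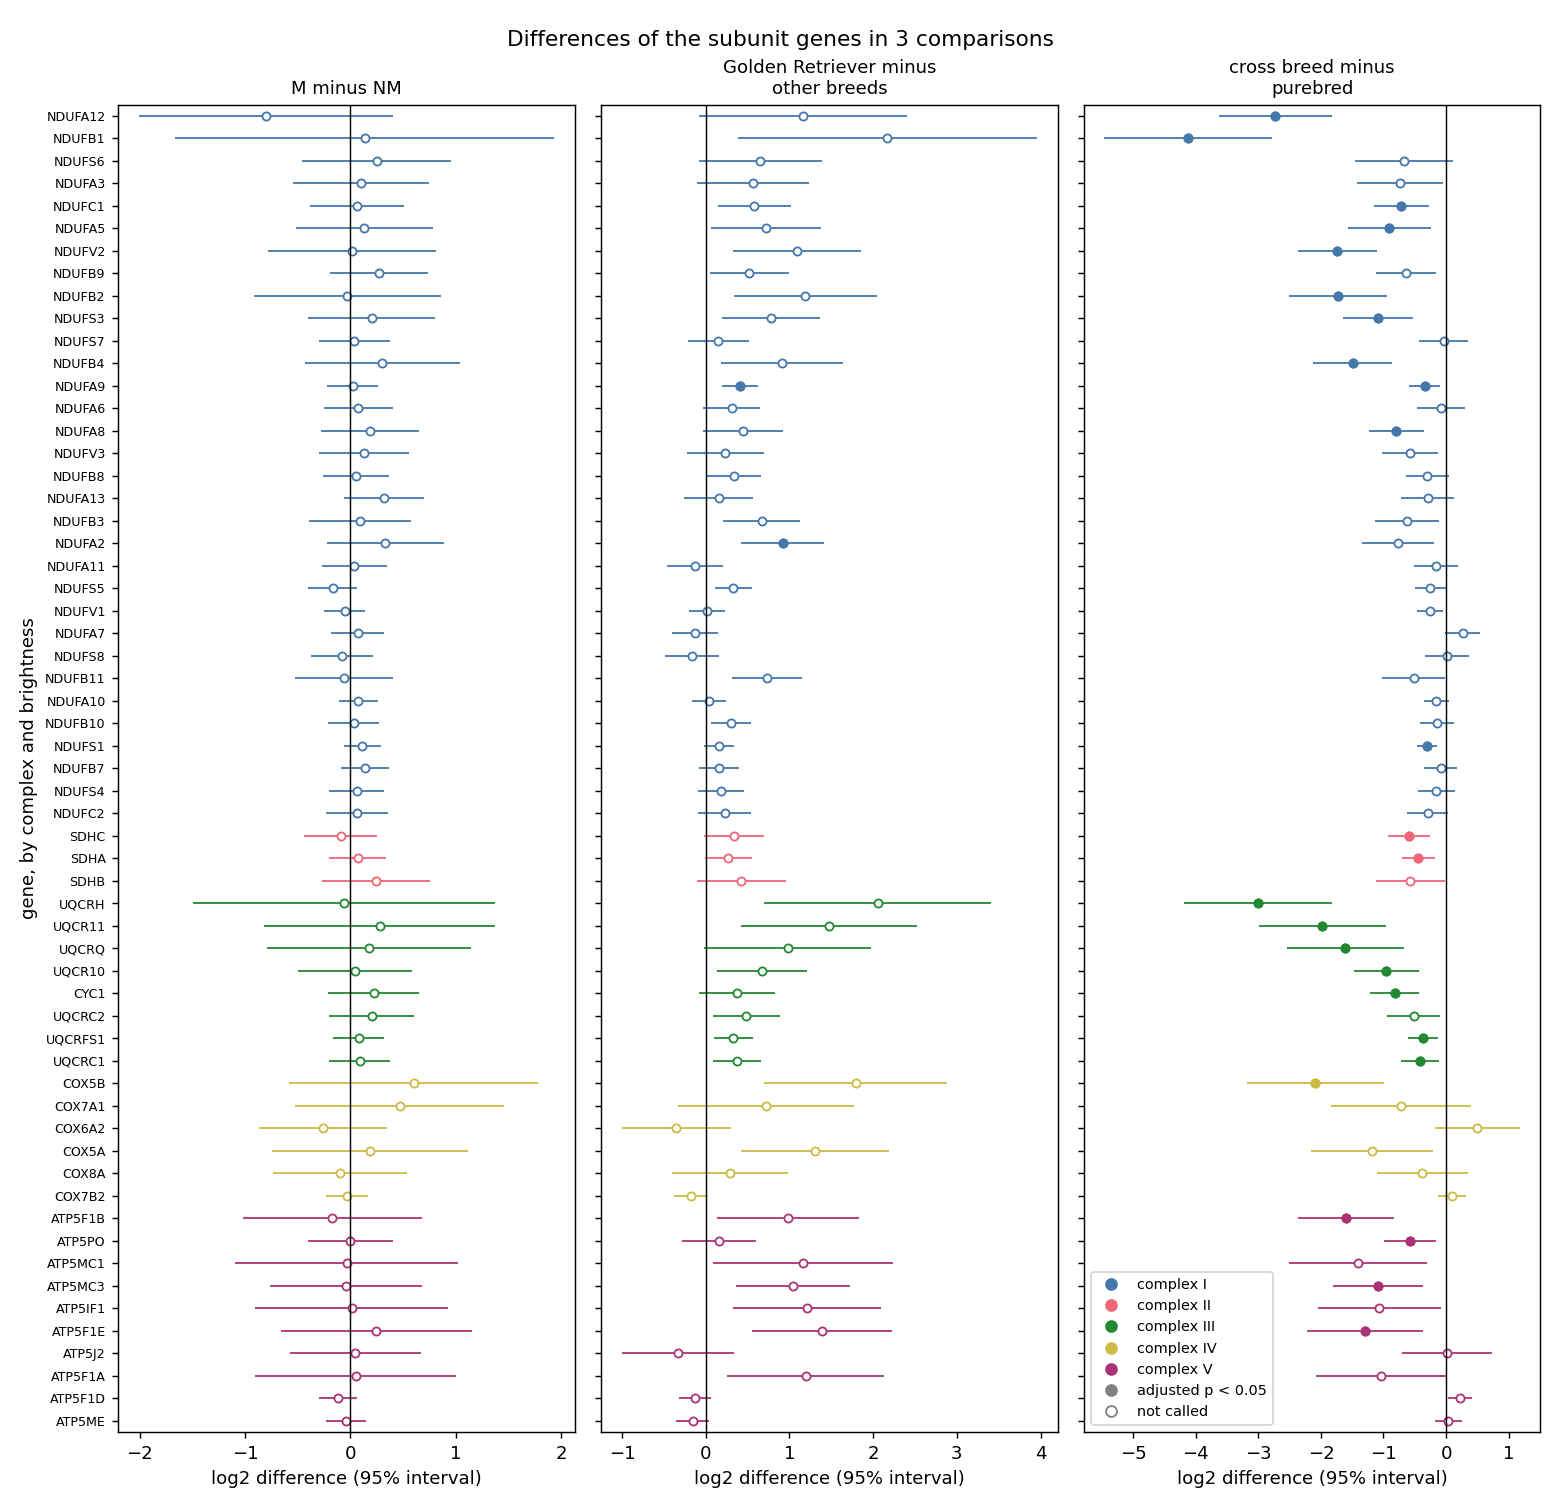
Fitted log2 difference of each subunit gene with its 95% interval in 3 comparisons: M minus NM, Golden Retriever minus other breeds, and cross breed minus purebred (filled points pass an adjusted p of 0.05). No gene is filled in the left panel, 2 complex I genes in the middle panel and 25 genes of all 5 complexes, all to the left of 0, in the right panel.

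The largest differences of the subunit genes lay between breed classes. The cross breed comparison was chosen after cross breed tumours stood apart in earlier results of these data. Its p-values are therefore not those of an independent test. In cross breed OMMs 25 of the 59 genes were lower than in purebred OMMs and 0 were higher, with metastatic status in the model. Of all Transcript clusters, 5.15% were called lower and 14.2% were called higher in the same comparison, so that the array as a whole moved mostly the other way. Most of the array is dim, however, and bright Transcript clusters moved the same way as the subunit genes. With a mean above 4, 33.7% of Transcript clusters were called lower, with a median difference of -0.44. The fitted difference was negative for 52 of 59 genes, with a median of -0.58, against 0.08 for all Transcript clusters. Called genes came from every complex, with 11 of 32 in complex I, 2 of 3 in complex II, 7 of 8 in complex III, 1 of 6 in complex IV and 4 of 10 in complex V. The complex medians were -0.43 (I), -0.57 (II), -0.89 (III), -0.55 (IV) and -1.05 (V).

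**Figure D3:**
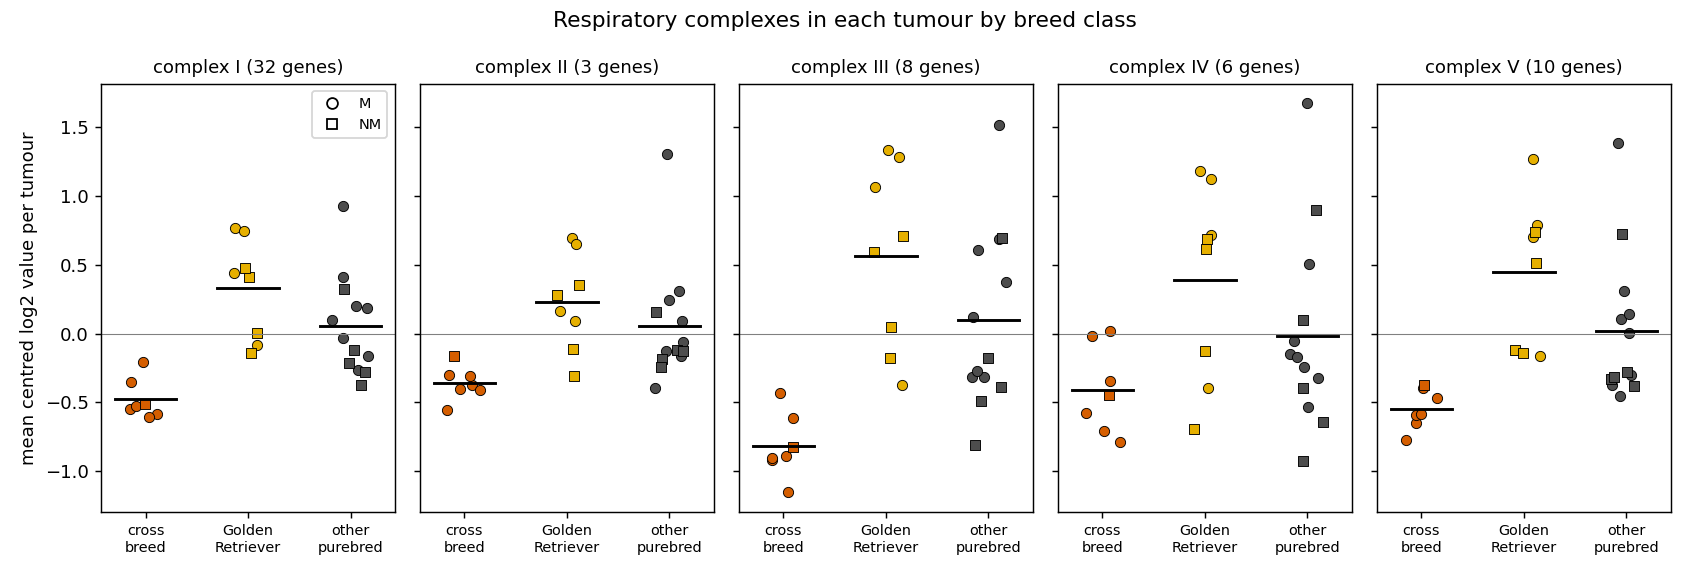
Mean centred log2 value of the genes of each complex in each tumour, by breed class (cross breed, Golden Retriever, other purebred), with circles for M and squares for NM and a line at the mean of the class. In complex III the 7 cross breed tumours lie between -1.15 and -0.43, and the single cross breed NM tumour lies among the 6 cross breed M tumours.

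Complex I held the largest of these differences. NDUFB1 had a lowest, median and highest log2 value of 1.49, 3.43 and 5.20 in cross breed OMMs, against 1.71, 7.31 and 8.87 in purebred OMMs, and a difference of -4.12 (SE 0.65, adjusted p = 0.000417). All 7 cross breed values were below the purebred median, and the single purebred tumour that was as dim was NM replicate 8 (Bouvier des Flandres). NDUFA12 had values of 2.56, 4.69 and 7.36 in cross breed OMMs, against 4.93, 7.44 and 8.26 in purebred OMMs, and a difference of -2.73 (SE 0.44, adjusted p = 0.000475). Of the 7 cross breed values 5 were below every purebred value, while M replicates 3 and 4 lay inside the purebred range. NDUFV2, a core subunit with an iron-sulphur cluster in the arm that oxidises NADH, had values of 1.77, 2.51 and 3.45 in cross breed OMMs, against 2.85, 4.27 and 5.48 in purebred OMMs (difference -1.74, SE 0.31, adjusted p = 0.00107). Here too 5 of 7 cross breed values were below the whole purebred range.

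NDUFB2, an accessory subunit of the membrane arm that was singled out after its values were seen, was the only subunit gene whose 2 groups did not overlap. Its values were 1.65, 1.75 and 1.89 in cross breed OMMs, against 1.98, 3.18 and 4.93 in purebred OMMs (difference -1.73, SE 0.38, adjusted p = 0.00425). The cross breed values were packed near the dim end of the array. Of all Transcript clusters, 0.0587% did not overlap in this comparison. The other 7 called genes of complex I were NDUFB4 (-1.49), NDUFS3 (-1.08), NDUFA5 (-0.91), NDUFA8 (-0.79), NDUFC1 (-0.71), NDUFA9 (-0.34) and NDUFS1 (-0.30).

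In succinate dehydrogenase 2 of the 3 genes were called lower. SDHC had values of 1.75, 2.20 and 2.61 in cross breed OMMs, against 2.04, 2.59 and 3.47 in purebred OMMs (difference -0.59, SE 0.16, adjusted p = 0.0144). SDHA had values of 1.87, 2.05 and 2.46 in cross breed OMMs, against 1.99, 2.61 and 3.17 in purebred OMMs (difference -0.44, SE 0.13, adjusted p = 0.0205). For each of the 2 genes, 3 of 7 cross breed values were below the purebred range and the rest overlapped with it. SDHB had a difference of -0.57 that did not pass (adjusted p = 0.124).

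Complex III was called lower in all but 1 of its genes. UQCRH had values of 1.81, 2.33 and 3.61 in cross breed OMMs, against 3.05, 5.93 and 7.20 in purebred OMMs (difference -3.01, SE 0.58, adjusted p = 0.00174). Of the 7 cross breed tumours 6 were below every purebred tumour. CYC1, which hands electrons to cytochrome c, had values of 1.67, 2.14 and 2.29 in cross breed OMMs, against 2.08, 2.62 and 3.96 in purebred OMMs (difference -0.82, SE 0.19, adjusted p = 0.00569). UQCR11 had values of 2.32, 2.80 and 3.76 in cross breed OMMs, against 2.92, 4.68 and 7.74 in purebred OMMs (difference -1.98, SE 0.49, adjusted p = 0.00856). All cross breed values of CYC1 and UQCR11 were below the purebred medians, with overlap at the low end of the purebred range. UQCRQ (-1.61), UQCR10 (-0.95), UQCRC1 (-0.41) and UQCRFS1 (-0.37) were called too, and UQCRC2 was not (-0.52, adjusted p = 0.0714).

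The measured genes of complex IV were divided. COX5B had values of 2.51, 3.52 and 5.02 in cross breed OMMs, against 3.72, 4.97 and 8.92 in purebred OMMs (difference -2.09, SE 0.54, adjusted p = 0.0103), and 4 of 7 cross breed values were below the purebred range. COX5A, which sits beside COX5B in the enzyme, had a difference of -1.18 that did not pass (adjusted p = 0.0751). The 2 muscle isoforms had differences of opposite sign, with -0.72 for COX7A1 (adjusted p = 0.336) and 0.50 for COX6A2 (adjusted p = 0.268). COX8A was at -0.38 (adjusted p = 0.439) and COX7B2 at 0.10 (adjusted p = 0.537). COX4I1, the common isoform of the largest nuclear-encoded subunit, lies outside the name rule. It had values of 3.10, 3.35 and 3.57 in cross breed OMMs, against 3.47, 4.21 and 5.40 in purebred OMMs (difference -1.04, SE 0.24, adjusted p = 0.00518), while its lung isoform COX4I2 had a difference of 0.06 (adjusted p = 0.779).

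In the ATP synthase, the catalytic beta subunit ATP5F1B had values of 2.92, 4.37 and 5.15 in cross breed OMMs, against 4.70, 5.37 and 7.64 in purebred OMMs (difference -1.60, SE 0.37, adjusted p = 0.00599). Of the 7 cross breed tumours 5 were below every purebred tumour. ATP5MC3, another gene for the c subunit, had values of 2.46, 2.83 and 3.30 in cross breed OMMs, against 2.93, 3.54 and 5.61 in purebred OMMs (difference -1.09, SE 0.35, adjusted p = 0.0325). ATP5F1E had values of 1.65, 2.0 and 2.51 in cross breed OMMs, against 1.31, 2.78 and 5.60 in purebred OMMs (difference -1.30, SE 0.45, adjusted p = 0.0441). The cross breed values of ATP5F1E lay inside the purebred range, all below its median. ATP5PO, part of the peripheral stalk, was called at -0.58 (adjusted p = 0.0450). ATP5F1A, the alpha subunit, was at -1.04 (adjusted p = 0.134), and ATP5IF1, which inhibits the enzyme and is no structural subunit, was at -1.07 (adjusted p = 0.106). ATP5F1D was the only subunit gene, 1 of 59, that had an unadjusted p under 0.05 in the other direction, at 0.22 (adjusted p = 0.0841), where 25.9% of all Transcript clusters were higher at that p.

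**Figure D4:**
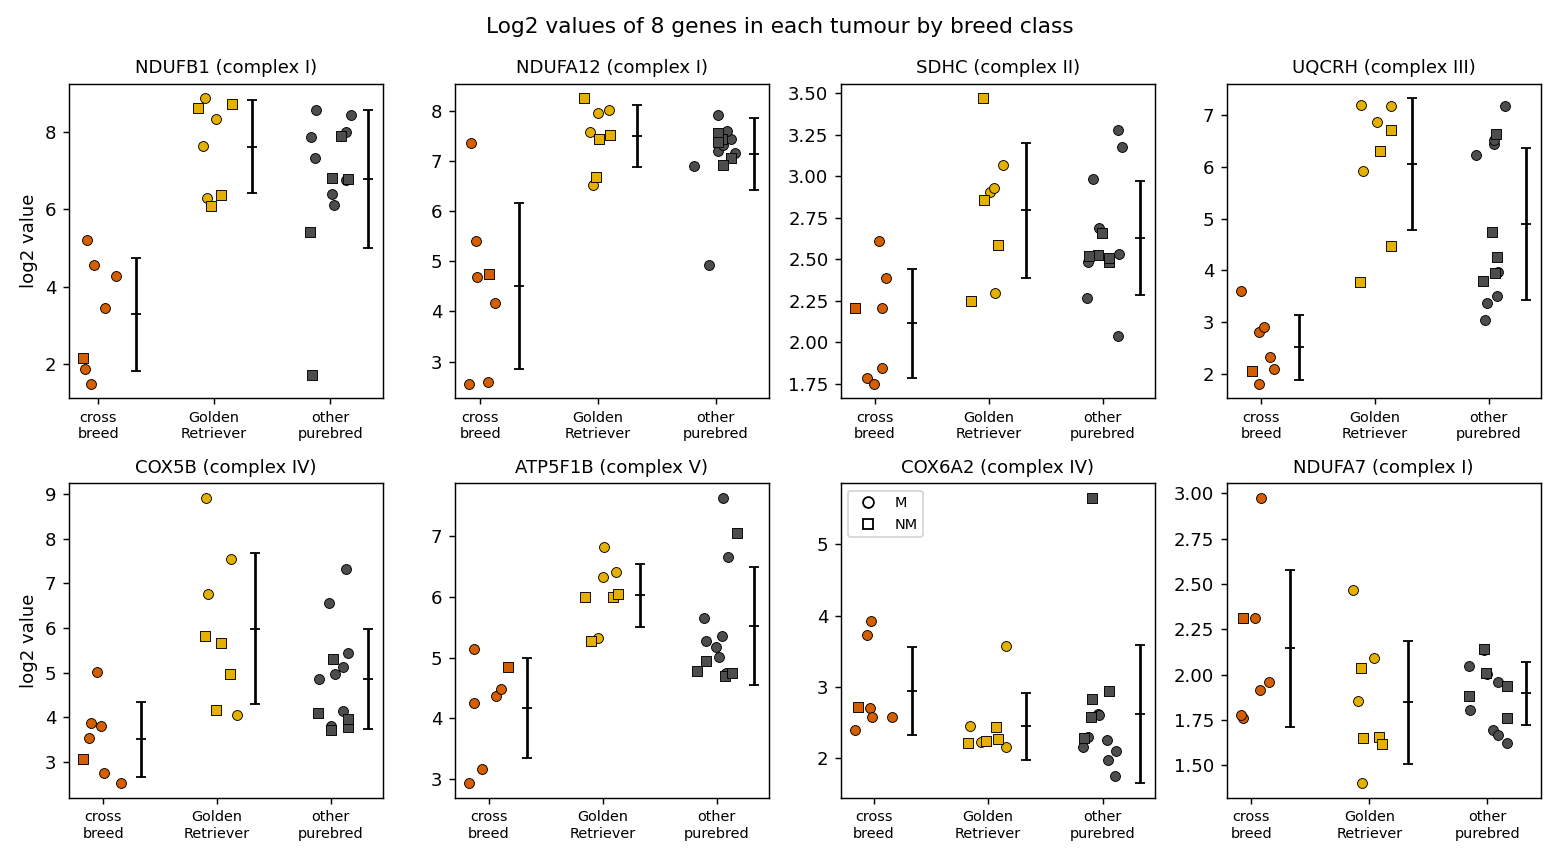
Log2 values of 8 genes in each tumour by breed class (cross breed, Golden Retriever, other purebred), with circles for M, squares for NM, and a tick and bar at the class mean and 1 SD. The cross breed points of NDUFB1, NDUFA12, UQCRH and ATP5F1B lie mostly below the purebred points, and COX6A2 has 1 NM tumour at 5.66.

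The difference grew with the brightness of a gene, for subunits as for all Transcript clusters. With a mean above 4, 8 of 11 subunit genes were called lower in cross breed OMMs and their median difference was -1.60, against 33.7% and -0.44 for all Transcript clusters of that brightness. Between 3 and 4 it was 5 of 8 subunit genes and -1.08, against 20.1% and -0.08. Between 2 and 3 it was 9 of 24 subunit genes and -0.55, against 10.4% and 0.01. Under 2 it was 3 of 16 subunit genes and -0.15, against 1.34% and 0.09. At each level of brightness the subunit genes had a more negative median than all Transcript clusters, and the share called grew with brightness in both. Taken over a mean above 2, 22 of 43 subunit genes were called lower, against 16.1% of Transcript clusters.

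The level of the subunit genes followed the strength of signal of each array. The mean centred value over the 59 genes had a Pearson correlation of 0.89 (Spearman 0.87) over 28 tumours with the share of other Transcript clusters above a log2 value of 4. Its correlation with the first principal component of all other Transcript clusters was 0.95 (Spearman 0.96). Within the 21 purebred tumours these correlations were 0.84 and 0.92, and within the 7 cross breed tumours 0.77 and 0.91. With the share above 4 in the model, 0 of the 59 genes were called between cross breed and purebred OMMs, against 0.0463% of all Transcript clusters, and with the first principal component 0 of 59, against 0.00926%. The complex medians were -0.07, -0.16, -0.45, 0.25 and -0.05 for complexes I to V with the share above 4, and 0.03, -0.04, -0.07, 0.40 and -0.02 with the first principal component. With the share above 4 in the model, the median of complex III was -0.45, where it was -0.89 without it. Breed class and signal strength overlap so far in these arrays that their parts cannot be told apart. The study measured the RNA quality of the tumour of each dog and gives the breed of each dog. The labels do not tie most of these dogs to single arrays, but the listed breeds would allow the breed classes to be compared. That comparison of RNA quality was not made here, and the part of RNA quality in both breed comparisons was not tested.

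**Figure D5:**
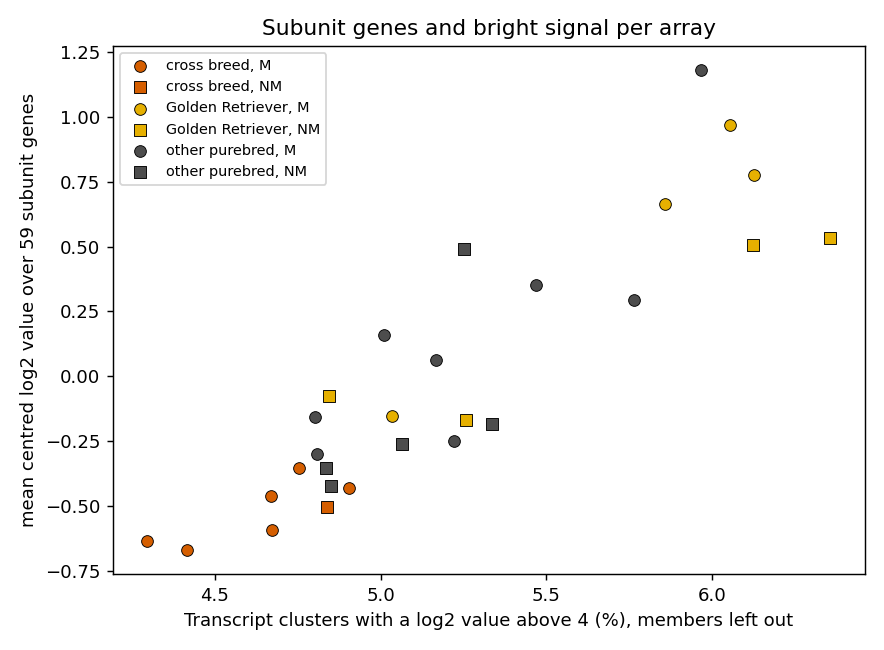
Mean centred log2 value over 59 subunit genes (y axis) against the percentage of other Transcript clusters with a log2 value above 4 (x axis), 1 point per tumour, coloured by breed class with circles for M and squares for NM. The points rise together, with the cross breed tumours at the lower left (4.30% to 4.91%) and M replicate 16 and 3 Golden Retriever M tumours at the upper right.

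In a design with 6 of 7 cross breed tumours in the M group, the comparison was repeated within M OMMs alone, where 19 of the 59 genes were called, all lower, against 3.64% of all Transcript clusters called lower. Leaving out each of the 28 tumours in turn gave 17 to 30 called genes, and the share of all Transcript clusters is not given for these fits. Without the Golden Retriever tumours 12 of 59 genes were called, all lower, against 2.03% of all Transcript clusters called lower.

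Of 77 measured markers of cell types, 3.90% were called lower and 5.19% higher in cross breed OMMs, against 5.15% and 14.2% of all Transcript clusters. All 10 fibroblast markers had a negative difference and 2 were called lower in cross breed OMMs, LUM (-1.52, adjusted p = 0.00593) and DCN (-1.74, adjusted p = 0.0177), and the mean of the list was 2.26 to 2.60 in cross breed OMMs, against 2.21 to 4.63 in purebred OMMs. Of 8 endothelial markers, PECAM1 was called lower (-1.13, adjusted p = 0.0174). Of 10 melanocyte markers 8 had a negative difference, with a list median of -0.48 and PMEL at -0.92 (adjusted p = 0.302), none of them called, and SOX10 was called higher (0.58, adjusted p = 0.0354). Also called higher in cross breed OMMs were ACTA1 of 17 muscle markers (0.58, adjusted p = 0.0221), CD8A of 8 T and NK cell markers (0.34, adjusted p = 0.0350) and CD79A of 6 B and plasma cell markers (0.28, adjusted p = 0.0415). Of 6 macrophage markers and 12 oral epithelium markers 0 were called. The mean of the oral epithelium list was 1.65 to 2.01 in cross breed OMMs, against 1.55 to 4.17 in purebred OMMs, and that of the melanocyte list 1.83 to 2.72 in cross breed OMMs, against 1.6 to 4.33 in purebred OMMs. The part of these cell types in the values of the subunit genes was not tested.

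The Golden Retriever OMMs were divided equally between M and NM, and their subunit genes were on the high side. Of the 59 genes, 2 were called higher in Golden Retriever OMMs than in those of other breeds and 0 lower, with 1.45% of all Transcript clusters called higher and 1.09% called lower. The fitted difference was positive for 51 genes, and 29 genes, all higher, had an unadjusted p under 0.05, against 11.5% of all Transcript clusters that were higher at that p. The complex medians were 0.37 (I), 0.34 (II), 0.58 (III), 0.50 (IV) and 1.01 (V), beside -0.07 for all Transcript clusters. The Golden Retriever tumours are part of the purebred group and the cross breed tumours part of the other breeds, so that the 2 breed comparisons share their tumours and are not independent.

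The 2 called genes were both accessory subunits of complex I. NDUFA9 had a lowest, median and highest value of 2.30, 2.90 and 3.11 in Golden Retriever OMMs, against 2.02, 2.47 and 3.22 in other OMMs (difference 0.41, SE 0.10, adjusted p = 0.0427). NDUFA2 had values of 2.12, 2.72 and 4.53 in Golden Retriever OMMs, against 1.55, 1.95 and 3.98 in other OMMs (difference 0.92, SE 0.24, adjusted p = 0.0454). All 8 Golden Retriever values of NDUFA2 and 7 of 8 of NDUFA9 were above the median of the other breeds, and for both genes the groups overlapped. Larger differences did not pass. UQCRH was at 6.51 in the median of Golden Retriever OMMs and 3.70 in that of other OMMs (difference 2.05, adjusted p = 0.0652), COX5B at 5.75 in Golden Retriever OMMs and 4.03 in other OMMs (1.79, adjusted p = 0.0558), and ATP5F1E at 4.04 in Golden Retriever OMMs and 2.31 in other OMMs (1.39, adjusted p = 0.0547). In Golden Retriever OMMs the mean of the fibroblast list was 2.30 to 4.63, against 2.21 to 3.91 in other OMMs, and that of the oral epithelium list was 1.66 to 4.17, against 1.55 to 3.44 in other OMMs, and the part of these cell types was not tested. Of the 77 measured markers, the epithelial keratin KRT5 (2.42, adjusted p = 0.0483) and the melanocyte receptor GPR143 (0.84, adjusted p = 0.0480) were called higher. Of all Transcript clusters 1.45% were called higher in the same comparison. The Golden Retriever tumours also differed among themselves, since their means over the 59 genes were -0.17, -0.15, -0.07, 0.51, 0.53, 0.67, 0.78 and 0.97.

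The Golden Retriever calls depended on the setting. With either measure of signal strength in the model 0 genes were called, against 0% of all Transcript clusters. Leaving out each tumour in turn gave between 0 (for example without NM replicate 8, a Bouvier des Flandres) and 24 (without M replicate 14, a Golden Retriever). The share of all Transcript clusters is not given for the fits that left out a tumour. Without the cross breed tumours 0 genes were called, against 0% of all Transcript clusters, and the complex medians were 0.31, 0.18, 0.39, 0.38 and 0.67 for complexes I to V.

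Whether the M minus NM difference was itself different in Golden Retrievers was tested as an interaction, and 0 of the 59 genes passed, against 0% of all Transcript clusters. At an unadjusted p under 0.05 there were 2 genes, with 3.07% of all Transcript clusters at that p. They were ATP5MC1 (interaction 2.63, SE 0.95, adjusted p = 1.0) and NDUFB10, an accessory subunit of complex I (0.49, SE 0.22, adjusted p = 1.0).

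Of 39 assembly factors, which help to build the complexes, 5.13% were called lower in cross breed OMMs, against 5.15% of all Transcript clusters, and 0 were called higher. By complex, 0 of 13 for complex I, 0 of 4 for complex II, 1 of 6 for complex III, 1 of 13 for complex IV and 0 of 3 for complex V were called. They were UQCC2 (-0.62, adjusted p = 0.00965) and COX17, the copper chaperone of complex IV (-1.42, adjusted p = 0.0241). Most of these factors were dim, with 12 of the 13 for complex I at a mean under 2. COX17 was brighter, with values of 2.47, 3.14 and 3.39 in cross breed OMMs, against 2.39, 4.56 and 6.52 in purebred OMMs. Of 6 measured subunits and carriers outside the name rule, COX4I1 alone was called.

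In the citric acid cycle, which supplies NADH and succinate, 2 of 15 genes (13.3%) were called lower in cross breed OMMs, beside the same 5.15% of all Transcript clusters. They were CS, citrate synthase (-1.0, adjusted p = 0.0271), and IDH3G, a subunit of isocitrate dehydrogenase (-0.50, adjusted p = 0.0465). Of 24 genes of glycolysis and the hypoxia response 4 (16.7%) were called lower, led by LDHA, lactate dehydrogenase A (-2.09, adjusted p = 0.00376), and GAPDH (-1.26, adjusted p = 0.00772). Of 14 regulators of mitochondrial biogenesis, the transcription factor YY1 was called lower (-1.16, adjusted p = 0.0272), and 14.3%, near the 14.2% of all Transcript clusters, were called higher. These were POLRMT, the mitochondrial RNA polymerase (0.40, adjusted p = 0.0338), and PPRC1 (0.21, adjusted p = 0.0352). Between M and NM OMMs 0 genes of all these lists were called. In Golden Retriever OMMs the called ones were NDUFAF6, an assembly factor of complex I (0.55, adjusted p = 0.0474), COX17 (1.51, adjusted p = 0.0427) and IDH3G (0.57, adjusted p = 0.0499), all higher. Of all Transcript clusters 1.45% were called higher in that comparison.

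COX6A2 was set apart by a different pattern, and is known as the isoform of heart and skeletal muscle. Its values were 1.75, 2.41 and 3.93 in M OMMs and 2.21, 2.50 and 5.66 in NM OMMs, the highest being NM replicate 1 (Great Dane). It was compared with the mean log2 value of 17 measured genes of skeletal muscle, because an oral biopsy can hold muscle. Of these 17 genes, 13 were dim, with a mean under 2. That mean was 4.52 in NM replicate 1 and 2.95 in M replicate 15 (Golden Retriever), and between 1.48 and 2.35 in the other tumours. COX6A2 had a Pearson correlation of 0.90 (permutation p = 1e-05, adjusted over 3 genes 3e-05, two-sided, the smallest the 100000 resamples can give) and a Spearman correlation of 0.81 (permutation p = 1e-05, adjusted 3e-05) with it over 28 tumours. Without the 2 tumours farthest from the median of the muscle mean, r was 0.72. It was 0.72 within M tumours and 0.99 within NM tumours, and 0.48 in cross breed OMMs and 0.97 in purebred OMMs. The NM and purebred values include NM replicate 1, whose muscle mean of 4.52 lay far above the rest. The part of the signal strength of the arrays in these correlations was not tested.

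The other 2 complex IV genes compared with the muscle genes had no such positive relation. COX7A1, although also an isoform of muscle, had r = 0.16 (permutation p = 0.393, adjusted 0.589) and a Spearman correlation of -0.33 (permutation p = 0.0821, adjusted 0.0821), and r was -0.46 without the 2 farthest tumours. COX5B had r = 0.07 (permutation p = 0.732, adjusted 0.732) and a Spearman correlation of -0.51 (permutation p = 0.00590, adjusted 0.00885), and r was -0.70 without the same tumours. COX7A1 instead followed the other subunit genes, at a correlation of 0.73 with their mean, where COX6A2 was at -0.13.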

How the data were processed

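Canine Gene 1.1 ST arrays were hybridised with RNA of 28 FFPE OMMs. The deposited log2 values are gene-level signals that the authors made with Affymetrix Expression Console 1.3, excluding arrays with outlying quality metrics and applying RMA (background correction, quantile normalisation, log2 transformation and summary per Transcript cluster). The genome build is not given in the sources used here. Arrays have no counts, so the number of tumours limits the precision.

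All 32391 Transcript clusters were fitted with limma 3.58.1 in R 4.3.3 (lmFit, eBayes, two-sided, Benjamini-Hochberg, threshold 0.05), which was tested on simulated data. Status was a term in the breed comparisons. Symbols came from the array annotation, 1 per Transcript cluster, and the brightest Transcript cluster of a gene was read. ATP5J2 had 1 further, dimmer Transcript cluster. No Transcript cluster of a subunit gene shared all values with another. Cross-hybridisation was not tested, although ATP5MC1 and ATP5MC3 encode the same mature peptide.

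The subunit genes, the lists of other genes and the cross breed comparison were chosen with earlier results of these data known. Named were up to 3 called genes per complex in the breed comparisons, up to 2 per complex and direction in M minus NM by smallest p, the COX isoforms, SDHA to SDHD, the most variable and the least correlated gene of each complex, and up to 2 genes of each other list. Alternatives changed the moderation, array weights, normalisation, centring, filters, covariates, blocks and tumours included. Tumours are separate dogs, with 1 array each. Replicate numbers are shared by M and NM OMMs but did not pair them (10 pairs, correlations of -0.41 to 0.12).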

Additional observations from a re-analysis of the deposited data

Results flagged for a closer look

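For 29 genes and 3 groups each (NM, Golden Retriever and cross breed OMMs), the highest or lowest tumour was compared with its nearest neighbour. A tumour stood apart by Dixon's criterion in 9 of 87 sets. The nominal rate of about 1 in 20 holds for independent sets of normal values. It is no chance rate here, since some genes were named for their large spread and the sets share tumours. COX6A2 was 5.66 in NM replicate 1 (Great Dane), with the next NM tumour at 2.94, and 3.57 in M replicate 15 among Golden Retriever OMMs, with the next at 2.44. These 2 tumours also had the highest mean of the skeletal muscle genes (4.52 and 2.95). The part of muscle tissue in their COX6A2 values was not tested by other means. NDUFA12 was 4.75 in NM replicate 10, the single cross breed NM tumour, below the other NM tumours, of which the next was at 6.69. Among cross breed OMMs the same tumour was the highest for ATP5MC1 (4.67, next 2.73) and for COX7B2 (2.21, next 1.75).

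In the remaining sets, COX8A was 4.27 in NM replicate 5 (next NM tumour 2.76), SDHC was 3.47 in NM replicate 3 (next 2.86), ATP5ME was 2.11 in NM replicate 4 (next 1.45), and NDUFA2 was 2.37 in M replicate 4 among cross breed OMMs (next 1.90).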

How the results depend on the processing

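Between M and NM OMMs, and for the interaction, 0 subunit genes were called under every alternative run, the replicate block (0 genes for M minus NM) and each tumour left out included. Between cross breed and purebred OMMs 19 to 29 genes were called, except 0 with the share above 4 in the model, 0 with the first principal component in the model and 12 without the Golden Retriever tumours. Leaving out single tumours gave 17 (without M replicate 13) to 30 (without M replicate 2). The share of all Transcript clusters is not set beside most of these counts, so that they show only how far the number of calls moved. The calls of ATP5F1E, ATP5MC3 and SDHA were lost with 12, 6 and 1 of the 28 tumours left out in turn. With the first principal component in the model ATP5MC3 was at 0.32 and ATP5F1E at 0.50.

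For Golden Retriever OMMs the 2 calls became 0 with trend and robust moderation, 0 with quantile normalisation repeated, 0 with the share above 4, 0 with the first principal component, 0 with the replicate block, 0 without the cross breed tumours, 0 within M and 0 within NM OMMs, 3 with centred arrays, 5 over Transcript clusters with 1 symbol, 9 over Transcript clusters above the median mean and 29 with array weights. They ranged over 0 to 24 with single tumours left out, and 25 of 28 such counts were outside 1.5 times the 2 calls. The share of all Transcript clusters is not set beside most of these counts, which describe only how far the number of calls moved.

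Complex medians for Golden Retriever OMMs were -0.0279 (I), -0.0743 (II), -0.18 (IV) and 0.0166 (V) with the share above 4, -0.0592, -0.0846, -0.15 and 0.0573 with the first principal component, and 0.40 (V) within NM OMMs. For cross breed OMMs they were -0.0716 (I), -0.16 (II), 0.25 (IV) and -0.0493 (V) with the share above 4, and 0.0284 (I), -0.0423 (II), -0.0732 (III), 0.40 (IV) and -0.0183 (V) with the first principal component. The cause was not tested.

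Of the M minus NM differences, none of which was called, ATP5J2 was -0.0236 with array weights, -0.0574 with the breeds of both groups and breed as a fixed block, and -0.25 without the cross breed tumours. UQCRH was 0.24 with the share above 4, 0.37 with breed as a random block, 0.67 with breed as a fixed block, 0.0215 with the replicate block and 0.66 without the cross breed tumours. COX6A2 was 0.0816 with breed as a fixed block, and without the cross breed tumours SDHC was 0.0691 and COX8A 0.0763. With single tumours left out, ranges that crossed 0 were -0.12 to 0.17 (ATP5J2), -0.35 to 0.16 (UQCRH), -0.0759 to 0.0410 (ATP5ME), -0.34 to 0.0586 (COX6A2), -0.22 to 0.14 (COX8A) and -0.14 to 0.00178 (SDHC).

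The replicate numbers did not pair the tumours, since 4 of 10 same-numbered pairs correlated above 0.1 and 1 correlated best with its own number. The median correlation of a gene with the others was 0.75, and 0.46 after taking out the share above 4. The planned removal of subunit genes that share all values with another Transcript cluster gave no value, since there were 0. Signal over background limits the 16 dim genes, and no detection calls were used.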

Other observations

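Of 63 cytosolic ribosomal protein genes, 42 (66.7%) were called lower and 2 (3.17%) higher than in purebred OMMs, against 5.15% and 14.2% of all Transcript clusters, with a median difference of -1.29, led by RPS27 (-2.83, adjusted p = 0.00032) and RPL29 (-3.45, adjusted p = 0.000334). Over 28 tumours the mean of these genes had a Pearson correlation of 0.79 with the mean of the 59 subunit genes. Of 69 mitochondrial ribosomal protein genes, 50 of which had a mean under 2, 7 (10.1%) were called lower and 4 (5.80%) higher, with 24 positive differences and a median of -0.16. MRPL14 was called at -1.27 (adjusted p = 0.00618) and MRPL52 at -0.66 (adjusted p = 0.0101). Of the cytosolic family 9 of 63 had a mean under 2. Between M and NM OMMs 0 genes of either family were called. In Golden Retriever OMMs 7 of the 63 cytosolic ribosomal protein genes (11.1%) were called higher than in other OMMs, against 1.45% of all Transcript clusters. The median difference of the 63 genes was 0.85, and 0 of the 69 mitochondrial ribosomal protein genes were called.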
